A study of Mus musculus with 2 samples.

Results

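Mir183, Mir96 and Mir182 are 3 miRNA genes that lie side by side on the minus strand of mouse chromosome 6. They were taken by their gene symbols from the 1973 genes of the tables, and each symbol matched 1 entry. The tissue, from mice of the strain B6NCrl at embryonic day 12.5, was the embryonic facial prominence, from which the face and jaws form. RNA below 30 bases was sequenced in 2 libraries of a single group. Per the labels, replicate 1 came from 120 healthy embryos and replicate 2 from 88, each a pool of males and females, so neither library describes a single embryo. No treatment, mutation or second tissue was part of the groups used here. The values are therefore levels within 1 tissue and differences between 2 pools, and no test between conditions could be made.

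The 3 hairpins are cut from a common primary transcript and belong to one family of related sequences. They are best known from sensory cells, including hair cells of the inner ear, photoreceptors and olfactory neurons, and changes in the seed of miR-96 cause progressive hearing loss in mice and people. A mature miRNA guides Argonaute proteins to messenger RNAs, and the bases near its 5′ end, the seed, pair with sites that lie mostly in 3′ untranslated regions. The facial prominence at this stage holds neural crest mesenchyme and a cover of ectoderm from which nasal sensory epithelium also arises. The data do not separate these cells.

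The whole hairpins show how the mature strands sit in each gene. The sequences are from RefSeq on GRCm38.p6, are written 5′ to 3′, and carry both annotated mature strands in capitals.
Mir183: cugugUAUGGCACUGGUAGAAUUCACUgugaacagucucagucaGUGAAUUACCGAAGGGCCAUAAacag
Mir96: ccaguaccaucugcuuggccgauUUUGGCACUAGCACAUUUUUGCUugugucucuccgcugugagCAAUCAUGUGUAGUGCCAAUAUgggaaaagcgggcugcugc
Mir182: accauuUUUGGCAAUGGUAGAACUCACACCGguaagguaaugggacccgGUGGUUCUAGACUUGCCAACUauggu

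The mature strands from the 5′ side of the hairpins are shown to compare the seeds, with bases 2 to 8 in capitals.
miR-183-5p: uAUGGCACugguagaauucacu
miR-96-5p: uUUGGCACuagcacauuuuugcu
miR-182-5p: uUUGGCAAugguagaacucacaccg
miR-1271-5p: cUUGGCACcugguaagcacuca

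These strands were compared position by position without gaps, counting from 1 at the 5′ end, and substitutions are written from the strand named first to the strand named second. In bases 2 to 8, miR-96-5p and miR-182-5p differed only by C8A, so that bases 2 to 7 were shared. The strands miR-96-5p and miR-183-5p differed there only by U2A. Over their whole length, miR-182-5p and miR-183-5p were the most alike of the 3 pairs, with 18 of 22 positions identical (81.8%) and the differences U2A, A8C, C17U and A22U. By contrast, miR-96-5p matched miR-182-5p at 12 of 23 positions and miR-183-5p at 13 of 22. The pair that is most alike along its whole length is thus the pair that differs most in the seed, with 5 of 7 seed bases in common against 6 of 7 for either of the others.

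Among the 1738 mature strands of the RefSeq table, 3 held bases 2 to 7 of miR-96-5p and miR-182-5p. The strand besides those 2 was miR-1271-5p, printed above, which shares bases 2 to 8 with miR-96-5p. Its gene, Gm24195 on chromosome 13, had 0 counts in both libraries, which allows up to 0.636 CPM in replicate 1 and 0.506 CPM in replicate 2. CPM is the count of a gene scaled to 1000000 counts over all genes of its library. No strand other than miR-183-5p held its bases 2 to 7. Of the RefSeq genes whose 5′ strand carries one of these seeds, those with counts were Mir183, Mir96 and Mir182. Genes without a mature strand in RefSeq were not searched. The tables count a whole hairpin, so the reads of the 5′ and 3′ strands were not told apart.

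The 3 genes occupy 3820 bases. On GRCm38, Mir183 (ENSMUSG00000065619.2) lies at chromosome 6, positions 30169668 to 30169737, and is 70 bases long. Mir96 (ENSMUSG00000065586.1), of 106 bases, follows at 30169446 to 30169551, only 116 bases further along the transcript. Mir182 (ENSMUSG00000076361.1), of 75 bases, lies at 30165918 to 30165992, after a gap of 3453 bases. In GENCODE M21 the cluster lies between genes, and 0 other annotated genes overlap it. The noncoding gene Rncr4, known from the retina, begins 3155 bases upstream of Mir183 on the opposite strand. The protein-coding neighbours are Nrf1, a regulator of mitochondrial genes, and Ube2h, a ubiquitin-conjugating enzyme. Both are farther off, at 12459 and 41551 bases.

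**Figure D1:**
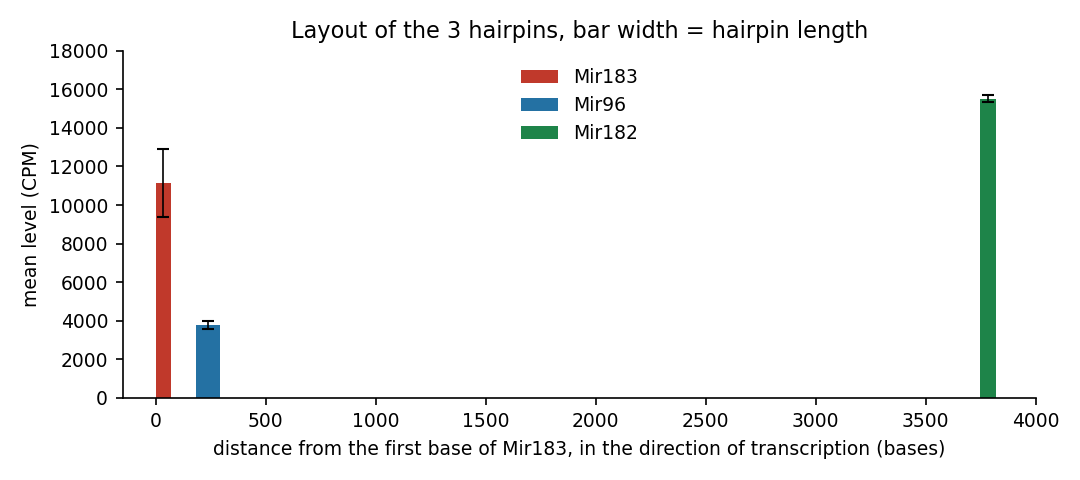
Position of the 3 hairpins along the transcript (x axis, bases from the first base of Mir183) and their mean level (y axis, CPM, error bars 1 SD, n = 2). The level falls from Mir183 to its close neighbour Mir96 and is highest at Mir182, the farthest hairpin.

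Replicate 1 held 4719337 counts on the own strand of miRNA genes, and replicate 2 held 5929220. Genes that reached 10 counts in each library are called detected here, and there were 395 of them among the 1973 genes. Lists of genes known from cell types of the labelled tissue were looked up. Detection alone does not check the tissue, since 3 of 3 genes of an eye list and 4 of 4 neuroendocrine genes were detected too. Of the mesenchymal genes 6 of 6 were detected, with a summed level of 64669 CPM in replicate 1 and 64166 CPM in replicate 2. Most of this sum came from Mir214, at 45770 ± 198 CPM. Of the epithelial genes 7 of 7 were detected, with summed levels of 30805 and 35800 CPM.

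All 3 genes of the cluster were well above the detection minimum. Mir182 had 72574 counts in replicate 1 and 92843 in replicate 2, which is 15378 and 15659 CPM. Its mean of 15518 ± 198 CPM (SD, n = 2) was 127-fold the median of the detected genes, which was 122 CPM. Mir182 ranked 15 of 395 in replicate 1 and 17 in replicate 2.

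Mir183 had 58504 counts in replicate 1 and 58673 in replicate 2, or 12397 and 9896 CPM. The mean was 11146 ± 1769 CPM (SD, n = 2), with rank 22 in replicate 1 and rank 24 in replicate 2. The counts were almost equal while the second library was deeper, so the level was lower there.

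Mir96, the gene with the deafness alleles, was the lowest of the cluster. It had 17064 and 23182 counts, or 3616 CPM in replicate 1 and 3910 CPM in replicate 2, with a mean of 3763 ± 208 CPM (SD, n = 2). It ranked 58 in replicate 1 and 53 in replicate 2, which still placed it above 85.8% of the detected genes. The order Mir182, Mir183, Mir96 held in both libraries, and the values of the 3 genes did not overlap. The ratio of Mir182 over Mir96 was 4.13 ± 0.175 and that of Mir183 over Mir182 was 0.719 ± 0.123 (SD, n = 2). The order itself was not tested. A read of this size covers 1 mature strand, so levels were not divided by hairpin length. How evenly the library preparation captures different strands was not tested.

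**Figure D2:**
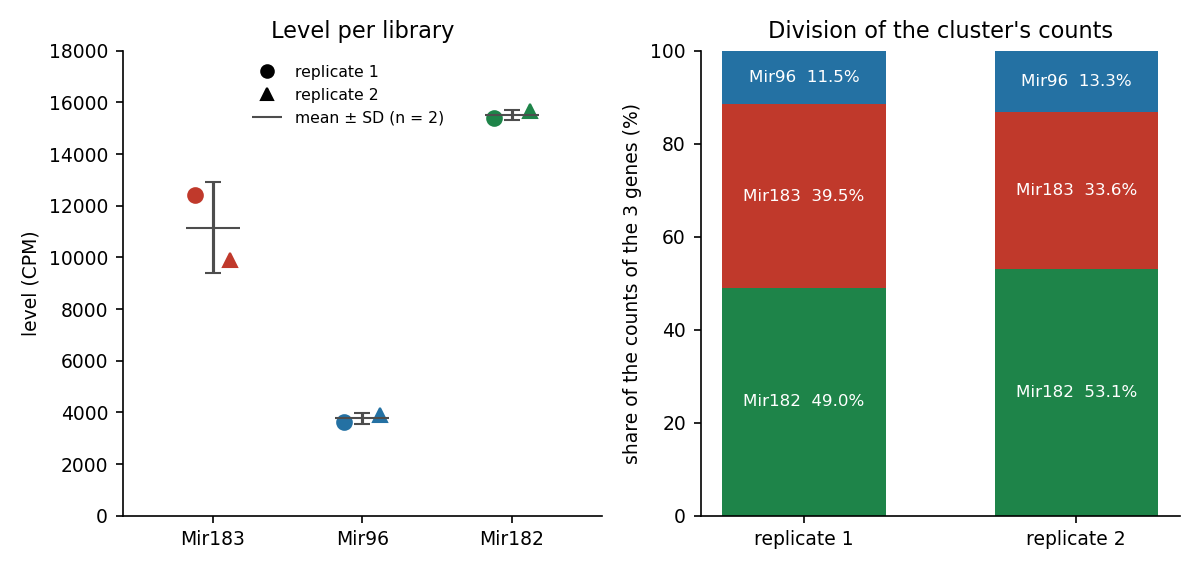
Left, level of each gene in CPM with replicate 1 as a circle, replicate 2 as a triangle and a line for the mean ± SD (n = 2). Right, how the counts of the 3 genes divide among them in each library, in percent. Mir182 and Mir96 lie close together between the libraries, whereas Mir183 was 12397 CPM in replicate 1 and 9896 CPM in replicate 2.

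The genes ranked next to each member show what a level of this size means in the tissue. Just above Mir182 stood Mir20a of the miR-17-92 cluster, known to promote growth, at 16289 ± 1297 CPM, and their order differed between the libraries. Just below it were Mir93 at 15090 ± 144 CPM and the cartilage gene Mir140 at 14833 ± 518 CPM. Mir93 was lower in both libraries, by more than the summed SD of the pair. Mir140 was also lower in both, but the gap was within the summed SD. Mir30e, at 23562 ± 126 CPM, was above Mir182 in both libraries by more than the summed SD.

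Mir183 stood between Mir23a (12409 ± 158 CPM) and Mir429 (9806 ± 1047 CPM), one of the miR-200 genes known to keep cells epithelial. Mir23a shares sequence with copies elsewhere and can be undercounted. The gap of Mir183 to Mir23a, Mir429 and the next gene below, Mir106b (9532 ± 956 CPM), was within the summed SD in each case. Only Mir652, at 13707 ± 431 CPM, was apart from it among the 4 nearest genes. The gap of Mir96 to each of its 4 nearest genes was within the summed SD. Its order against Mir1983 (3874 ± 487 CPM) and Mir15a (3810 ± 4.84 CPM) differed between the libraries, whereas Mir361 (3508 ± 78.5 CPM) and Mir324 (3420 ± 526 CPM) were lower than Mir96 in both. These pairs were compared by the spread of 2 libraries each.

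**Figure D3:**
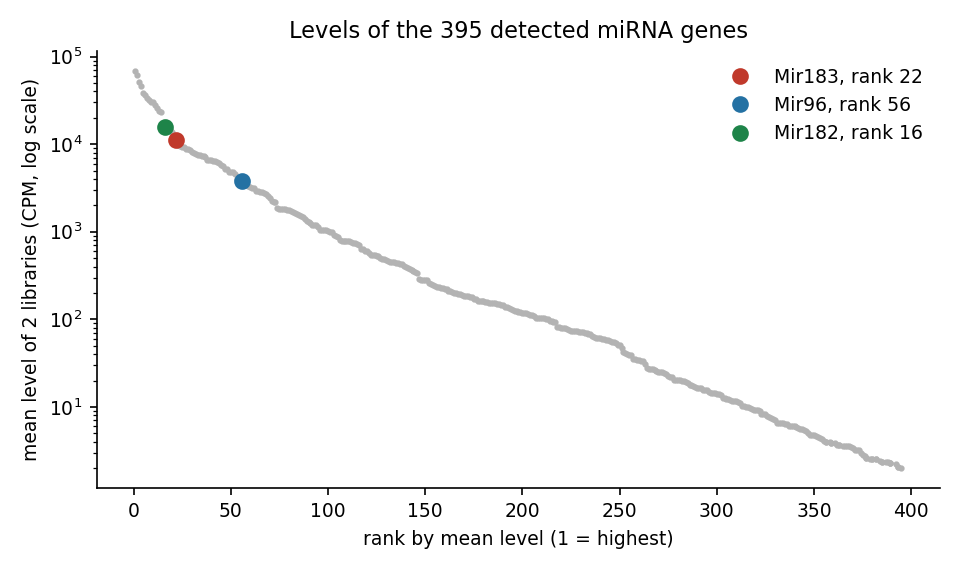
Mean level of the 395 detected genes (y axis, CPM on a log scale) against their rank (x axis, 1 is the highest). Mir182 at rank 16 and Mir183 at rank 22 lie on the steep part of the curve, and Mir96 lies at rank 56.

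Together the 3 genes held 148142 of the gene counts in replicate 1, or 3.14% (exact Clopper-Pearson interval at the 95% level 3.12 to 3.15). In replicate 2 they held 174698 counts, or 2.95% (interval 2.93 to 2.96). The mean share was 3.04% ± 0.136 (SD, n = 2). These intervals cover counting error only. Since the intervals do not overlap, the libraries differed by more than counting error, and the difference was small beside the level itself.

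Within the cluster, Mir182 gave 49.0% of the counts in replicate 1 (exact interval 48.7 to 49.2) and 53.1% in replicate 2 (52.9 to 53.4). Mir183 gave 39.5% (39.2 to 39.7) and 33.6% (33.4 to 33.8). Mir96 gave 11.5% (11.4 to 11.7) and 13.3% (13.1 to 13.4). The shares of Mir182 and Mir96 were thus larger in replicate 2, and that of Mir183 was smaller, each beyond counting error. Relative to Mir182, Mir96 was at 0.235 in replicate 1 and 0.250 in replicate 2, and Mir183 went from 0.806 to 0.632. The hairpins that lie 116 bases apart, Mir183 and Mir96, were therefore the pair whose ratio differed most between the libraries, at 3.43 against 2.53.

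Between the libraries, the log2 ratio of replicate 2 over replicate 1 in CPM was -0.33 for Mir183 (exact binomial interval -0.34 to -0.31). For Mir96 it was 0.11 (interval 0.08 to 0.14) and for Mir182 it was 0.03 (interval 0.01 to 0.04). Each interval lay on 1 side of 0, which speaks of counting error alone and not of the spread between pools. Of the 3 genes, 0 were at least 1.5-fold apart between the libraries. Over all detected genes 55 of 395 were, or 13.9%, of which 41 were higher in replicate 1 and 14 in replicate 2. At a lower limit of 0.32 on the log2 scale, Mir183 passed at 1.253-fold and Mir96 and Mir182 did not, against 35.7% of the detected genes that passed.

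The difference of Mir183 was above the median for this pair of libraries, and more so among abundant genes. The median absolute log2 ratio over all detected genes was 0.23, and 64.6% of the genes had a smaller one than Mir183. Among the 100 detected genes with a mean of at least 1000 CPM, counting error is small. Their median was 0.17, and the share with a smaller ratio than Mir183 was 80%. That share was 35% for Mir96 and 11% for Mir182, so Mir182 differed less between these 2 libraries than most of the abundant genes. The ratios compare these 2 libraries and carry no p-value, since 1 library stands against 1.

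**Figure D4:**
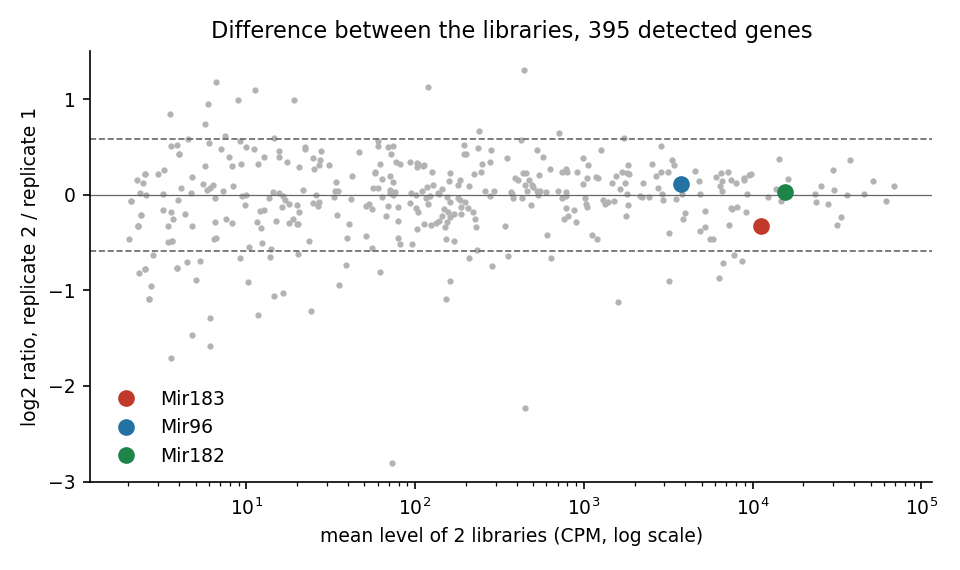
Log2 ratio of replicate 2 over replicate 1 (y axis) against mean level (x axis, CPM on a log scale) for the 395 detected genes in grey and the 3 genes in colour. Dashed lines mark 1.5-fold. Mir182 (0.03) and Mir96 (0.11) lie near 0, and Mir183 (-0.33) lies below it and inside the lines.

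The cluster was then set beside other clusters, taken as detected genes on the same strand with gaps of at most 10 kb. Such runs numbered 43, and the 3 genes ranked 8 by summed level. From the highest to the lowest of its genes the cluster spanned 4.12-fold, with 4.25-fold in replicate 1 and 4.005-fold in replicate 2. The median span of all 43 clusters was 16.1-fold, and 10 of them spanned less, among them the more abundant pair Mir99b and Mir125a at 4.06-fold. Most of these clusters are pairs. The median span of the 15 clusters with 3 or more genes was 77.4-fold, and 1 of them spanned less. That was Mir292, Mir293 and Mir294, genes of early embryonic cells, at a summed level of only 50.1 CPM. Many of the 43 clusters hold genes that share sequence with copies elsewhere. Such genes can be undercounted, which can widen the span. Larger clusters have more genes to differ, so clusters of exactly 3 genes are the closer comparison. There were 7 of these, the present cluster included, with a median span of 19.2-fold. Among the 5 of them without genes that share sequence, the median was 16.1-fold and 1 cluster spanned less.

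Of the clusters of exactly 3 genes, that of Mir183, Mir96 and Mir182 had the highest summed level, 30427 CPM. The next was Mir93, Mir106b and Mir25, a paralogue of miR-17-92, with 25406 CPM. There Mir93 gave 59.4% and Mir25 (784 ± 102 CPM) only 3.09%. In the epithelial cluster of Mir429, Mir200b and Mir200a, Mir429 gave 73.8% and Mir200a (608 ± 125 CPM) 4.57%. In that of Mir23a, Mir27a and Mir24-2, Mir23a gave 97.6%, but all 3 genes share sequence with copies elsewhere, and reads with several mapping places were counted to no gene. Neither Mir183, Mir96 nor Mir182 shares a stretch of 20 bases with a miRNA gene at another place. The longest stretches they had in common with any other hairpin of the tables were 14 bases for Mir183 and 11 bases each for Mir96 and Mir182. Their members were thus more even in level than those of the 3 clusters named here, as a description of these libraries.

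**Figure D5:**
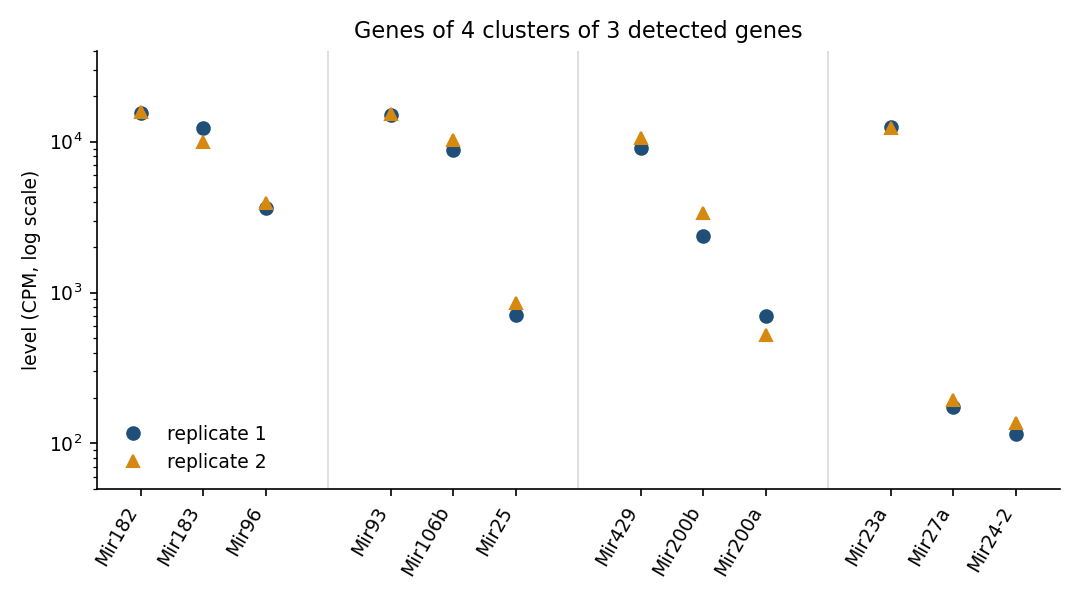
Level of each gene (y axis, CPM on a log scale) in replicate 1 (circles) and replicate 2 (triangles) for the cluster of Mir182, Mir183 and Mir96 at the left and the 3 other clusters of 3 detected genes with the highest sum. The lowest gene of the first cluster, Mir96 at 3763 CPM, stands above the lowest gene of the other clusters, which range from 126 to 784 CPM.

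The shift of Mir183 against its neighbours can also be set beside other clustered genes. The log2 ratios of Mir183 and Mir182 lay 0.35 apart, and those of Mir183 and Mir96 lay 0.44 apart. For Mir182 and Mir96 the distance was 0.09. Over the 93 pairs of genes within a cluster that both reached a mean of 1000 CPM, the median distance was 0.26 and the largest was 1.07. Every pair of a cluster was counted, so larger clusters can weigh more and the pairs are not independent. Of these pairs 31 were farther apart than Mir183 and Mir182, and 20 were farther apart than Mir183 and Mir96. Mir200a in the epithelial cluster also went the other way from its neighbours, with a log2 ratio of -0.42 against 0.51 for Mir200b and 0.22 for Mir429.

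Lists of cell type genes give the levels among which the cluster stood. Its summed level of 31390 CPM in replicate 1 and 29464 CPM in replicate 2 was near that of the epithelial list, which was 30805 and 35800 CPM. Of the 7 epithelial genes, 6 were higher in replicate 2 and 1 was lower, with a median log2 ratio of 0.22, whereas that of the 3 cluster genes was 0.03 and that of all detected genes 0.00. Of the epithelial genes 0 of 7 were 1.5-fold apart, as were 0 of 6 mesenchymal and 0 of 8 detected neuronal genes, against 13.9% of all detected genes. The neuronal list summed to 1428 and 1357 CPM, with 8 of 12 measured genes detected. Its defining Mir124a genes reached no more than 4 counts per library, but these genes share sequence with their copies and can be undercounted. The neuroendocrine list, led by Mir375 at 745 ± 14.2 CPM, summed to 1016 and 996 CPM with 4 of 4 genes detected, of which 1, Mir7-2, was 1.5-fold apart.

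The eye list stood at 891 CPM in replicate 1 and 1671 CPM in replicate 2, and 3 of 3 of its genes were at least 1.5-fold higher in replicate 2, against 3.54% of all detected genes (14 of 395). The genes of the cluster had log2 ratios from -0.33 to 0.11, against a median of 1.13 for the eye list of Mir204, Mir211 and Mir184. Blood genes summed to 511 and 627 CPM, and of the 4 detected 1, Mir451a, was 1.5-fold apart. The part of any of these cells in the levels of Mir183, Mir96 and Mir182 was not tested, and in bulk tissue fewer cells of a type and less RNA per cell cannot be told apart.

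Reads on the opposite strand were almost lacking at the cluster. Mir183 had 3 such reads in replicate 1 and 10 in replicate 2, Mir182 had 2 and 3, and Mir96 had 0 in both, which allows up to 3. Over all genes the own strand held 96.8% of the reads in replicate 1 and 96.7% in replicate 2. Within 1 Mb on chromosome 6 the tables list 5 further miRNA genes. Mir335, in the imprinted gene Mest, lies 572 kb away and reached 69100 ± 2984 CPM. Mir29a, 893 kb away and on the same strand as the cluster, reached 55.4 ± 4.11 CPM. Mir29b-1 reached 1.54 ± 0.682 CPM, but it shares sequence with a copy and can be undercounted. Gm26220 and Gm23049, which also share sequence with a copy, reached no more than 3 counts per library. The neighbours thus ranged from no counts in either library to the 69100 CPM of Mir335.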

How the data were processed

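The values are raw read counts for miRNA genes, deposited by the authors as 1 table per library, with mm10 as assembly and GENCODE M4 as annotation, per the files' descriptions. Trimming, aligner and counter are not given in the sources used here. A table gives counts over both strands and over each strand alone. The column with 96.8% and 96.7% of the gene reads was read as the own strand, since the tables have no header. Entries that name no gene (58.7% of reads in replicate 1 and 53.7% in replicate 2, among them 26.0% and 27.9% with several mapping places) were kept out of library sizes. Replicates held 11414919 and 12792420 reads in all. A count of 0 allows up to 3 counts.

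Symbols and positions came from GENCODE M21 on GRCm38, which matched 1894 of 1973 identifiers, and sequences from RefSeq on GRCm38.p6, which held all 3 members. Of the listed cell type genes, Mir9-1 and Mir142 matched no entry. CPM, SD, exact binomial intervals and ranks were computed in Python 3.11.15 with scipy 1.17.1. Alternatives used TMM factors of edgeR 4.0.16 and size factors of DESeq2 1.42.0 (R 4.3.3). The code for ratios, intervals and clusters was tested on simulated data. No count model was fitted for testing, since 1 library against 1 leaves no residual degrees of freedom. The labels call the libraries biological replicates, but each pool gave 1 library, so biological and technical spread cannot be told apart. Named genes were the members, the 2 genes above and the 2 below each by level, miRNAs sharing the seed, miRNA genes within 1 Mb, the 3 other clusters of 3 genes with the highest sum, and the cell type lists. The members and lists were chosen with earlier results of these data known.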

Additional observations from a re-analysis of the deposited data

How the results depend on the processing

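The levels depend on what they are divided by. Per 1000000 reads of any kind, entries that name no gene included, Mir183 stood at 4856, Mir96 at 1654 and Mir182 at 6808, and the 3 genes held 1.33%. Without genes that share sequence in the sum, Mir96 stood at 4163 and Mir182 at 17167 CPM, and the share was 3.37%. With reads of both strands Mir182 stood at 15012 CPM. The number of genes at least 1.5-fold apart was 22 of 277 with a minimum of 100 counts and 201 of 631 with a minimum of 1. It was 141 with a limit of 0.32 on the log2 scale and 18 with a limit of 2-fold. Of the 38 alternatives that keep both libraries, the other 26 moved a value by less than the spread between replicates or the exact interval, or, for the count, stayed within 1.5 times. Leaving out 1 of 2 libraries moves a mean by less than the SD in any case and shows nothing on stability. The log2 ratios of Mir183, Mir96 and Mir182 kept their sign under TMM factors, size factors and counts of both strands. No paired analysis was possible because the labels give 1 group of 2 libraries. Depth does not limit the 3 genes, which had at least 17064 counts, but 2 libraries limit every statement on spread.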

Other observations

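The seeds of the 3 miRNAs can be followed to the sites they would match. In the longest annotated 3′ untranslated region of each of 20996 protein-coding genes (GENCODE M21), the complement of bases 2 to 8 was searched on the transcript strand only. The letters searched were GTGCCAT for miR-183, GTGCCAA for miR-96 and TTGCCAA for miR-182, which cannot match at the same place. Those of miR-96 and miR-182 differ only in the first letter, since the strands share bases 2 to 7. Matches to bases 2 to 7 alone, which miR-96 and miR-182 would have in common, were not searched. The overlaps given here leave such sites out. A match for miR-183 was found in 8.77% of the genes, for miR-96 in 7.89% and for miR-182 in 10.9%. Regions with a match were longer, with medians from 2398 to 2416 bases against 954 bases for all genes. Of the genes with a miR-96 match, 21.4% also had one for miR-182 and 17.9% one for miR-183. Of those with a miR-182 match, 15.5% had one for miR-96 and 17.4% one for miR-183. Of those with a miR-183 match, 16.1% had one for miR-96 and 21.6% one for miR-182. A match is a description of the letters, and no messenger RNA was measured here.

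Of all genes, 0.410% held a match for each of the 3 miRNAs. Among 11 genes chosen for being named as targets in work on these miRNAs, Foxo1, Adcy6 and no other held all 3. Their regions are long, at 6240 and 2377 bases against a median of 954 bases for all genes. Since the 11 were chosen as reported targets, the share of all genes is no measure for them. Foxo1 encodes a transcription factor of insulin signalling, and Adcy6 an enzyme that makes cyclic AMP. The windows from Foxo1 are shown because they hold exactly 1 match for each miRNA, with the match in capitals.
Foxo1, miR-183: gtagataaggactGTGCCATt
Foxo1, miR-96: tcattacaatgaaGTGCCAAa
Foxo1, miR-182: agtgtgtttgctcTTGCCAAa
In Foxo1 the matches begin 234, 260 and 3901 bases after the stop codon. The gene Mitf, a regulator of pigment cells, held 1 match for miR-96 and 1 for miR-182. Foxo3 held 2 for miR-182 and 0 for the others. Ezr and Itgb1 each held 1 match for miR-183 and 1 for miR-96, and Aqp5 held 1 and 2. Celsr2, Myrip and Ryk each held 1 match for miR-96, and Odf2 held 0 for any of the 3.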
